A study of Mus musculus with 6 samples.

Results

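The genes described here encode the ion channels, calcium-handling proteins and gap junction proteins that were measured in MC3T3-E1 cells after fluid flow. They were chosen by symbol alone, as the potassium, calcium, sodium, TRP, polycystin and Piezo channel genes, the P2 purinergic receptors, the connexins and pannexins, the chloride channels, the calcium release channels and calcium pumps, the Orai and Stim genes, and the calmodulins and calmodulin-dependent kinases. The rule found 62 genes among the 8566 that had a named probe in the log2 values, and for each gene the probe with the highest mean intensity was used. The rule itself used no measured change, though it was set with earlier results of these data known. By their symbols, Trpc4ap (a protein that binds TRPC channels) and Kcnq1ot1 (an antisense RNA within the Kcnq1 gene) were caught with the channel genes. The symbols also caught Camk2n1 and Camk2n2, inhibitors of CaM kinase II, with the kinases.

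MC3T3-E1 is a mouse line of osteoblast precursors from calvarial bone, and a single subclone of it was used. Cells in well plates on an orbital shaker had received rest-inserted flow, in which 4 bouts of 5 min of flow were each followed by 10 min of rest, or continuous flow, both for 60 min in all, and control cells had received no flow. RNA was taken at 1 h or at 0 h after the end of the regimen. For each of these 6 conditions the RNA of 3 independent experiments was pooled and put on 1 mouse whole-genome bead array from Illumina. Any spread between the experiments is therefore hidden, both kinds of flow share the no flow array of their time point, and p-values rest on differences between single arrays.

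Mechanical load on bone moves fluid past its cells, and a rise of calcium in the cytosol is among the first responses to it. Calcium enters through stretch-gated and voltage-gated channels, is released from the endoplasmic reticulum by inositol trisphosphate receptors, and is pumped out again by calcium ATPases. Potassium channels set the voltage that drives entry, ATP released through pannexins and connexin hemichannels acts on P2 receptors, and gap junctions carry the signal to neighboring cells. Calmodulin binds the calcium and activates the calmodulin-dependent kinases and calcineurin.

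The 250 bases before the annotated start of 4 of these genes are shown, from RefSeq on the build GRCm38.p6. Gja1 is shown as the gene of the main gap junction protein of bone cells, Kcnn4 and Kcnk5 as a pair of potassium channel genes that lay together above no flow and above 0 h, and Trpv4 as the gene with the lowest mean ratio of flow to no flow among those detected on all 6 arrays. They lie at chr10:56377050-56377299 on the plus strand (Gja1), chr7:24370013-24370262 on the plus strand (Kcnn4), chr14:20181783-20182032 on the minus strand (Kcnk5) and chr5:114658422-114658671 on the minus strand (Trpv4). Capitals mark matches, on either strand, to 3 motifs of factors known from mechanically loaded cells: TGANTCA (AP-1), TGACGTCA (the cAMP response element) and GGAATG (TEAD).
Gja1: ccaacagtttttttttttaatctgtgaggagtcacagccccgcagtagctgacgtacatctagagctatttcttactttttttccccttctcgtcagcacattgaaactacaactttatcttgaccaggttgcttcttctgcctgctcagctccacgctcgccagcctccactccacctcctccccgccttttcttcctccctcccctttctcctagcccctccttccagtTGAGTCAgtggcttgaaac
Kcnn4: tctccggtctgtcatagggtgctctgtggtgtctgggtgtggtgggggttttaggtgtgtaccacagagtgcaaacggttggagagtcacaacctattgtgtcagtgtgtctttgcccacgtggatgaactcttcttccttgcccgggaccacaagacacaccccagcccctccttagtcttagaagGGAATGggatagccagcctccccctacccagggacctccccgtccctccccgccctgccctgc
Kcnk5: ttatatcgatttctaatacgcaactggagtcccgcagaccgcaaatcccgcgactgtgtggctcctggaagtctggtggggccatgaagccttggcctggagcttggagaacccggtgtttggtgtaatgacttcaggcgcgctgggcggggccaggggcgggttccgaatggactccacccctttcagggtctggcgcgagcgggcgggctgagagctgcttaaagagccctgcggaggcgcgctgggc
Trpv4: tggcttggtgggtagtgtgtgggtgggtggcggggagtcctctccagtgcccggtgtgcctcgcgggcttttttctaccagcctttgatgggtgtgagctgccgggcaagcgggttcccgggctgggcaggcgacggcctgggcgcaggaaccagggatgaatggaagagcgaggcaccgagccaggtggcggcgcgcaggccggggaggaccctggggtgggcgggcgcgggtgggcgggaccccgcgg

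The AP-1 match lies 19 bases before the start of Gja1 and the TEAD match 63 bases before that of Kcnn4, while the windows of Kcnk5 and Trpv4 held no match. Of 32851 promoters of this length, 6.75% held the AP-1 motif, 1.55% the cAMP response element and 12.6% the TEAD motif. A promoter was found for 52 of the 62 genes. Some genes have several annotated starts. Among the 53 promoters of the genes detected on all 6 arrays, the shares were 5.66% (Gja1, Clic1 and Kcnk2), 0% and 13.2%. A match is a description of the letters and not a binding site.

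Detected means a detection p-value under 0.01 against the negative controls of the array. By this measure 47 of the 62 genes were detected on all 6 arrays, and each array detected between 49 and 56 of the 62, among 13472 to 14426 probes in all. Their median signal was low, with a mean normalized log2 intensity of 6.26 against 7.53 over the 7321 genes detected on all 6 arrays, and 37 of the 47 lay below that median. Signal on this array depends on the probe as well as on the transcript, so the signals below are those of single probes and give no order of transcript levels between genes.

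Gja1 encodes connexin 43, which joins neighboring bone cells. Its log2 intensity was 11.90 with rest-inserted flow, 12.04 with continuous flow and 11.90 with no flow at 1 h, and 11.90, 11.92 and 11.82 in the same order of conditions at 0 h. The 6 values lie close together. Calm3 and Calm2, which encode calmodulin, averaged 11.59 and 10.72, and Clic4 and Clic1, which encode soluble proteins named as intracellular chloride channels, 11.14 and 9.30. Atp2a2, the SERCA2 pump that refills the endoplasmic reticulum, averaged 9.35, and Camk2n2, an inhibitor of CaM kinase II, 9.83.

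Among the channels of the surface membrane, P2rx4, an ATP-gated cation channel, lay between 7.76 and 8.27 on the 6 arrays, while the sodium channel Scn3a averaged 7.42, the stretch-gated channel Piezo1 7.10 and the store-operated channel Orai1 6.99. Trpv2 averaged 6.27, Pkd1 (polycystin 1, a partner of a ciliary cation channel) 6.11 and Trpv4 (an osmosensitive and flow-sensitive calcium channel) 4.85. The potassium channel genes lay between 4.54 for the antisense RNA Kcnq1ot1 and 6.35 for Kcnk5, and the calcium channel genes between 4.58 for Cacnb4 and 5.66 for Cacna2d1. Both calcium release channels detected, Itpr2 and Itpr3, averaged 6.31 and 5.98. Of the genes known from mechanosensing in bone cells, 5 (Pkd2, P2rx7, P2ry2, Cacna1c and Itpr1) had no named probe in the log2 values and were not analysed here.

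**Figure D1:**
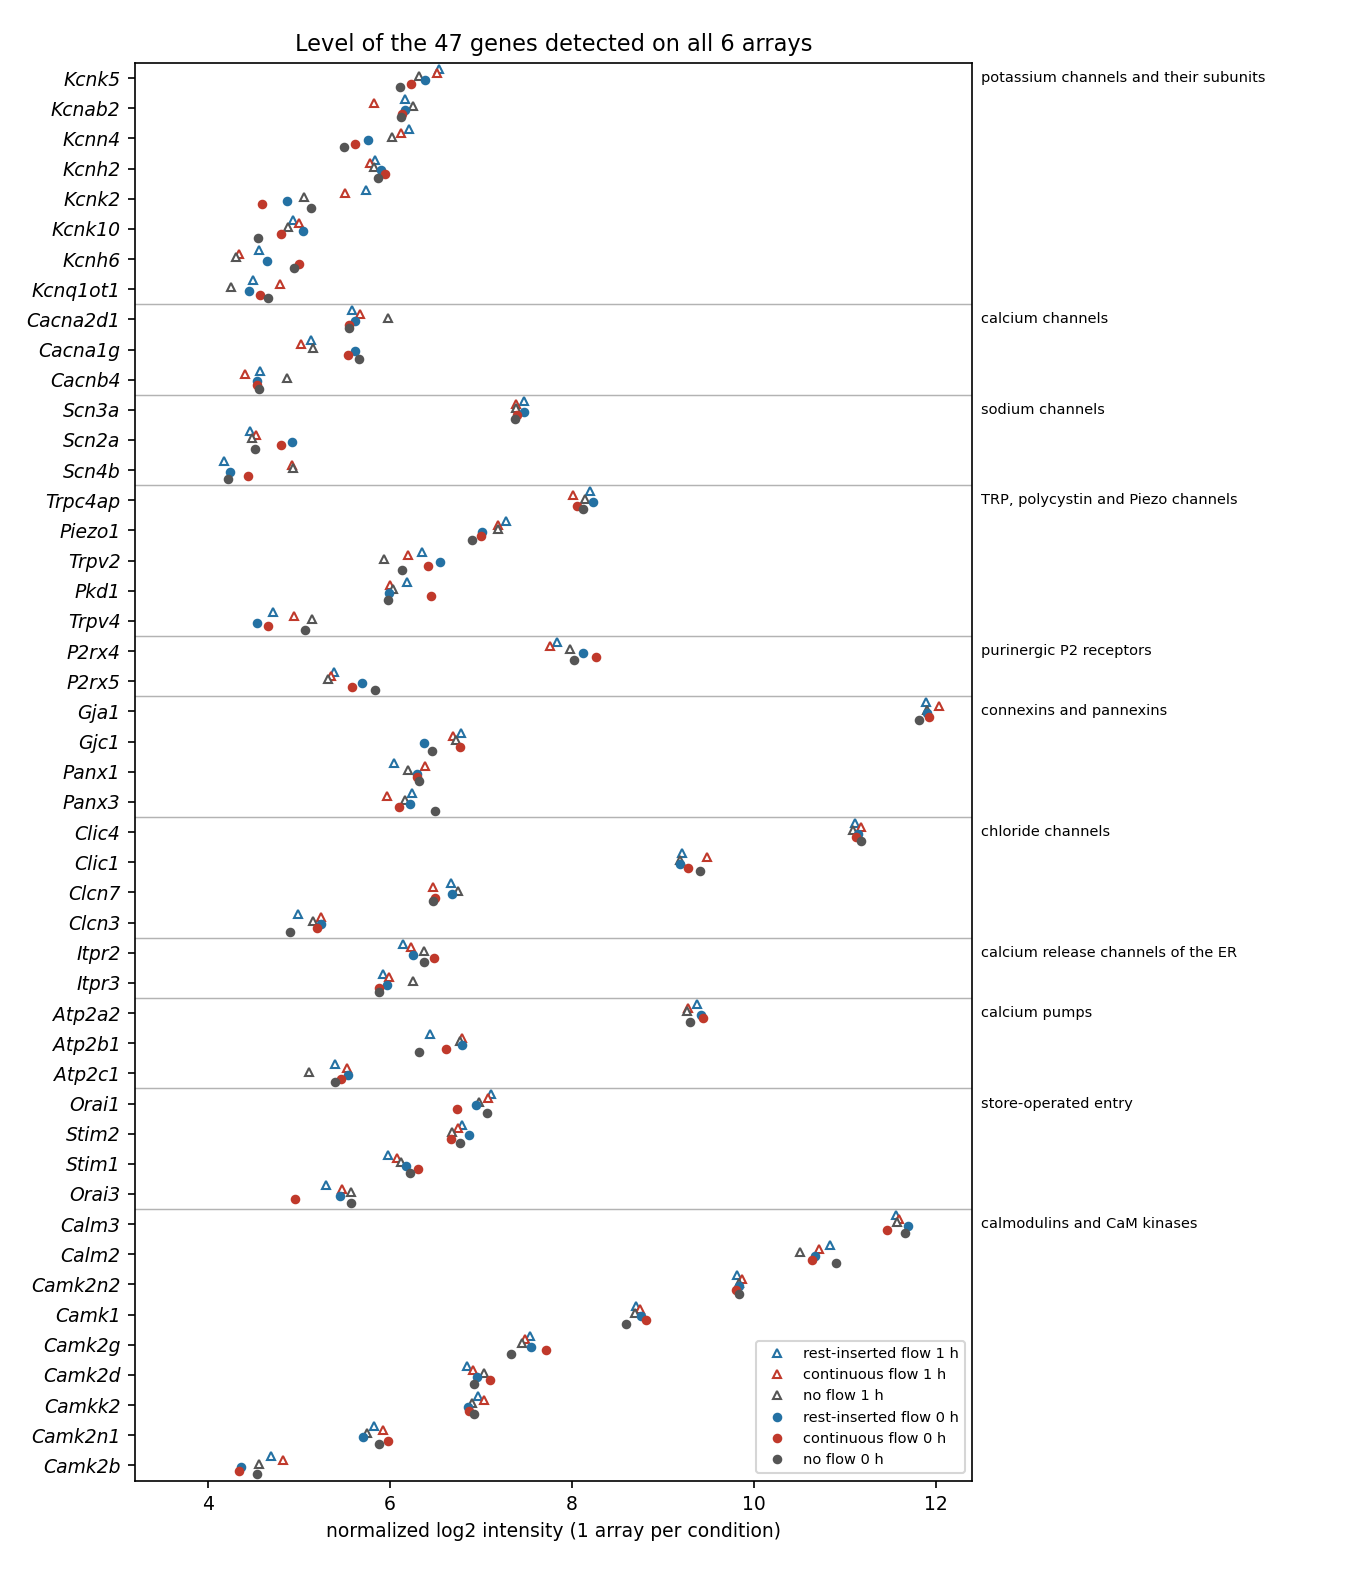
Normalized log2 intensity of the 47 genes detected on all 6 arrays, grouped by role and ordered by mean level within it. Each symbol is 1 array, with triangles for 1 h and circles for 0 h and a color for each flow condition. Heights are signals of different probes and give no order between genes. The 6 arrays of Gja1, at a mean of 11.91, lie close together, and those of Kcnk2 are spread between 4.60 and 5.74.

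The other 15 genes were near the limit of detection. Cacng7 and Atp2b4 were detected on 5 arrays, Cacnb2 on 4, Trpm3 and Camk1d on 3, and Trpm7, Clcn2, Clcn4, P2ry14 and Scn2b on 2. Trpm1, Camk2a, Gja6, Gjb1 and Kcnf1 were detected on 1 array each. These genes are kept apart in the counts below.

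In limma, fitted to all 13183 named probes with flow and time point as terms, 0 of the 62 genes passed an adjusted p of 0.05 in any comparison. All probes gave the same: 0% were called for rest-inserted flow against no flow, for continuous flow against no flow, for rest-inserted against continuous flow, for 1 h against 0 h, for any flow against no flow at 1 h or at 0 h, and for the flow effect at 1 h minus that at 0 h. The error of this fit has 2 degrees of freedom and comes from the disagreement between the arrays of the time points or of the kinds of flow.

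At an unadjusted p under 0.05, 4 of the 47 genes detected on all 6 arrays differed between rest-inserted flow and no flow (Trpv2, Trpv4, Kcnk5 and Kcnn4), beside 2.8% of all genes detected on all arrays. For continuous flow there were 2 (Trpv2 and Trpv4), beside 3.57%, for rest-inserted against continuous flow 0 (2.4%), and for 1 h against 0 h 7 (8.36%). For any flow against no flow there were 6 at 1 h (3.63%) and 3 at 0 h (5.38%), and for the difference between these flow effects 2 (4.41%), namely Kcnk2 and Calm2. These counts are small and moved when 1 array was left out. They then lay between 2 and 3 for rest-inserted flow, 0 and 3 for continuous flow, 0 and 2 for rest-inserted against continuous flow and 4 and 6 for 1 h against 0 h. For any flow they lay between 1 and 6 at 1 h and 2 and 3 at 0 h, and for the difference between 1 and 5.

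With a variance prior that follows intensity, 1 gene passed, Kcnn4 for 1 h against 0 h, where 2.44% of all probes were called. For continuous flow against no flow this prior called 6 probes, none of these genes, and in the other comparisons it called 0. At an unadjusted p under 0.05 it gave 2 of the 47 genes for rest-inserted flow (5.38% of all genes), 4 for continuous flow (7.16%), 2 for rest-inserted against continuous flow (4.77%) and 8 for 1 h against 0 h (16.4%). For any flow it gave 3 at 1 h (4.75%) and 4 at 0 h (7.47%), and for the difference between these 3 (5.87%).

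Ratios of at least 1.5-fold, a log2 ratio of 0.585, were few among the 47 genes. At 1 h, rest-inserted flow over no flow passed this fold upward in 1 of 47 (Kcnk2), beside 0.478% of all genes detected on all arrays, and downward in 1 (Scn4b), beside 0.574%. Continuous flow over no flow passed it in 0 in either direction, beside 0.642% upward and 0.533% downward. At 0 h, rest-inserted flow passed it in 0 of 47 (0.779% upward and 0.574% downward in all genes), and continuous flow in 0 upward (0.902%) and 1 downward (Orai3, 0.656%). A single array stood for each condition, so these are differences between arrays with no replicate check.

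The medians over the 47 genes were near 0. The median log2 ratio of rest-inserted flow to no flow was 0.03 at 1 h and 0.03 at 0 h, beside medians of -0.0008 and 0 over all genes, and that of continuous flow was 0.03 at both times, beside -0.0055 and -0.0058. Of the 47, 9 lay above no flow on all 4 flow arrays and 4 below on all 4, beside 12.1% and 12.7% of all genes. The 9 were Trpv2, Kcnk10, Atp2c1, Kcnk5, Camk2g, Kcnn4, Camk1, Atp2a2 and Scn3a, and the 4 were Trpv4, Orai3, Cacnb4 and Cacna1g. All 4 ratios of a gene share 2 no flow arrays. Of the 62 genes 15 had more than 1 probe detected on all 6 arrays, and in 5 of these all such probes had the same sign of the mean flow ratio, so these directions belong to the probe used.

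**Figure D2:**
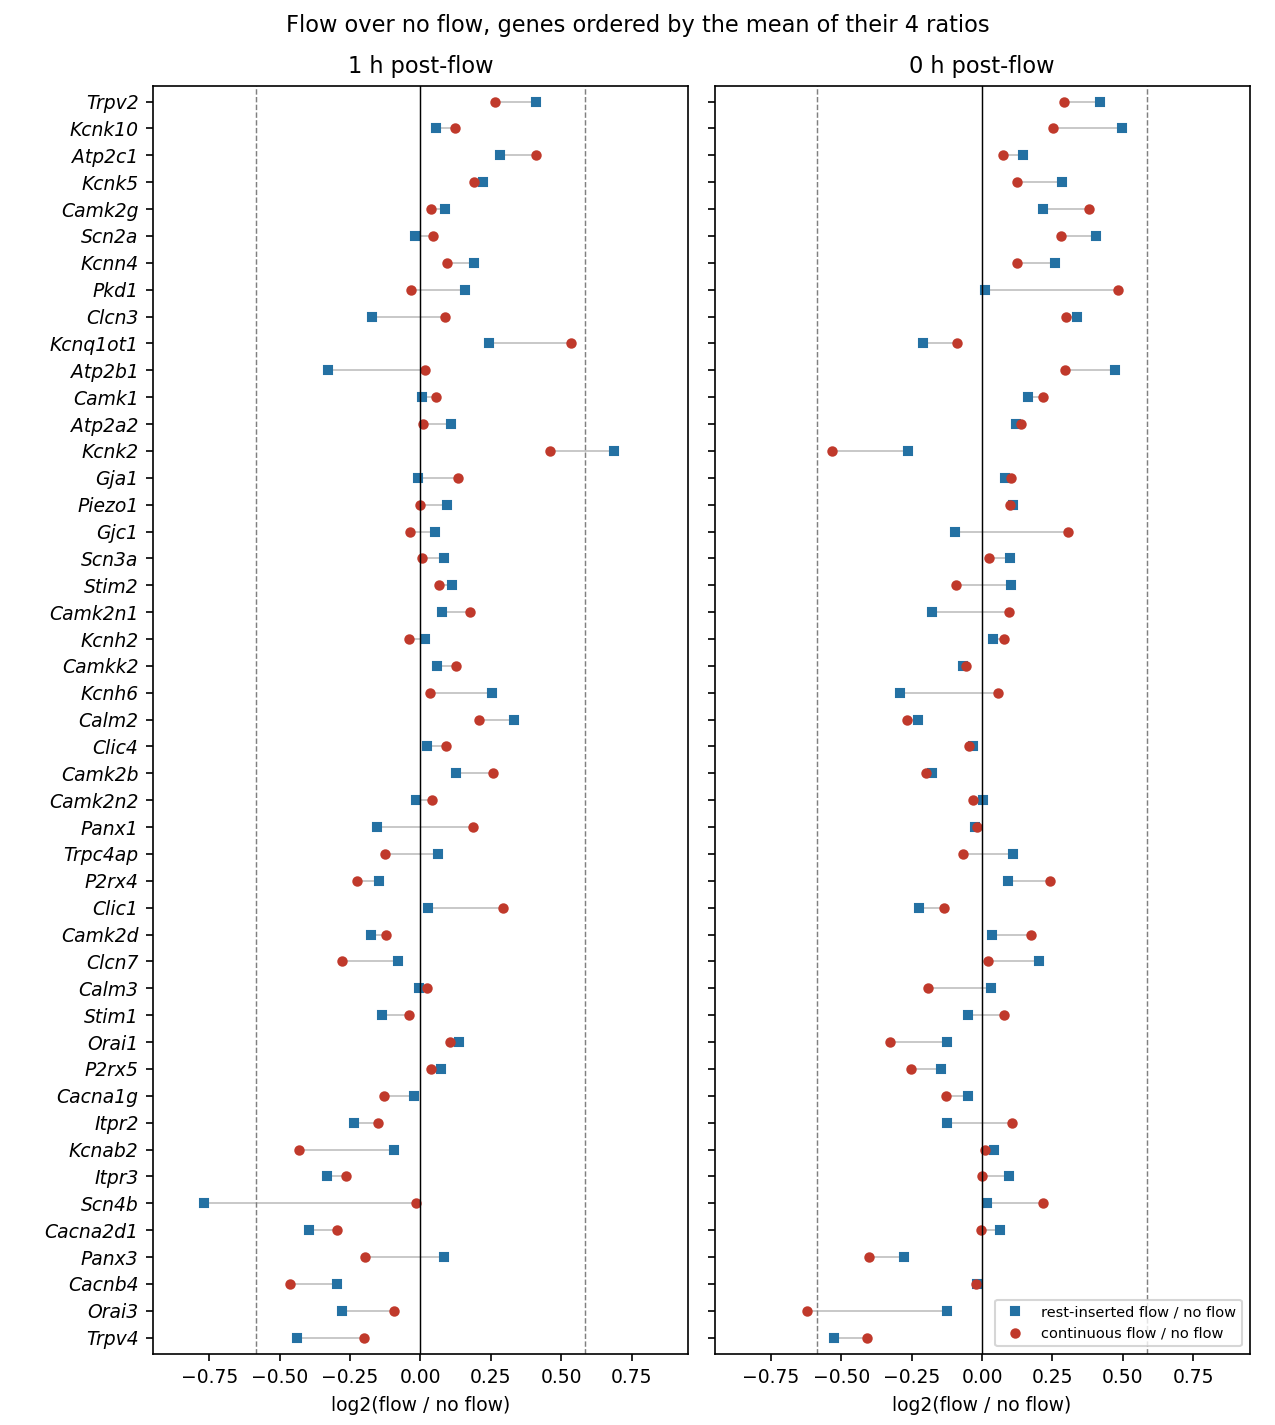
Log2 ratio of flow to no flow at 1 h and at 0 h for the 47 genes detected on all 6 arrays, ordered by the mean of their 4 ratios. Squares are rest-inserted flow and circles continuous flow, and dashed lines mark 1.5-fold. Trpv2 and Trpv4 stand at the top and bottom, and 3 of the 188 points lie past 1.5-fold.

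The TRP channels held both ends of this order. Trpv2, a calcium-permeable channel that also responds to membrane stretch, had log2 intensities of 6.35 with rest-inserted and 6.20 with continuous flow against 5.94 with no flow at 1 h, and 6.55 and 6.42 against 6.13 at 0 h. All 4 flow arrays lay above both no flow arrays. The fitted log2 difference was 0.42 ± 0.08 (SE) for rest-inserted flow and 0.28 ± 0.08 for continuous flow, with limma adjusted p of 0.714 and 0.767. With the intensity trend the errors were 0.13 and the adjusted p 0.794 and 0.744.

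Trpv4 had log2 intensities of 4.71 with rest-inserted and 4.95 with continuous flow against 5.15 with no flow at 1 h, and 4.54 and 4.66 against 5.07 at 0 h. All 4 flow arrays lay below both no flow arrays. The fitted differences were -0.48 ± 0.09 (SE) for rest-inserted and -0.31 ± 0.09 for continuous flow, with limma adjusted p of 0.714 and 0.776. The other Trpv4 probe was detected on 1 array only, and its ratios were 0.03 and 0.48 at 1 h and -0.12 and 0.04 at 0 h for rest-inserted and continuous flow, so it does not repeat the lower values.

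Piezo1 lay at 7.28 with rest-inserted and 7.19 with continuous flow against 7.19 with no flow at 1 h, and at 7.02 and 7.01 against 6.91 at 0 h. It differed with flow by at most 0.11 on any array, less than its difference between the time points. Its dimmer probe, at a mean of 4.73, was below no flow at 0 h (-0.54 and -0.42 with rest-inserted and continuous flow) and above it at 1 h (0.15 and 0.61). Pkd1 stood 0.48 above no flow with continuous flow at 0 h and between -0.03 and 0.16 from it in the other 3 comparisons. Trpc4ap had ratios of 0.06 and -0.12 at 1 h and of 0.11 and -0.07 at 0 h.

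Of the 7 potassium channel genes detected on all arrays, with Kcnq1ot1 left out, 6 had a mean flow ratio above 0, beside 49.1% of all genes, and the median was 0.09. The sign of this mean turned in Kcnk2, Kcnh6, Kcnab2 and Kcnh2 when 1 array was left out. For Kcnh2 the mean ratio over both kinds of flow was 0.06 at 0 h and -0.01 at 1 h. A dimmer probe of Kcnh2, also detected on all 6 arrays, had a mean flow ratio of -0.17. Kcnk5, a pore-forming potassium channel that carries background current, had log2 intensities of 6.54 with rest-inserted and 6.51 with continuous flow against 6.32 with no flow at 1 h, and 6.39 and 6.23 against 6.11 at 0 h. Kcnn4, the calcium-activated channel of intermediate conductance, lay at 6.22 and 6.12 against 6.02 at 1 h, and at 5.76 and 5.62 against 5.50 at 0 h. In both genes the flow arrays lay above the no flow array of their own time point, and rest-inserted flow above continuous flow. The fitted differences of rest-inserted flow from no flow were 0.25 ± 0.08 (SE) for Kcnk5 and 0.23 ± 0.08 for Kcnn4, with limma adjusted p of 0.874 and 0.908.

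Kcnk2, which encodes the stretch-activated potassium channel TREK-1, had the largest flow effect at 1 h minus that at 0 h among the 47 genes. At 1 h its log2 intensity was 5.74 with rest-inserted and 5.51 with continuous flow, against 5.05 with no flow. At 0 h it was 4.87 and 4.60, against 5.13. It was thus above no flow on both flow arrays at 1 h, 1.61-fold with rest-inserted flow, and below it on both at 0 h. The flow effect at 1 h minus that at 0 h was 0.97 ± 0.25 (SE) on the log2 scale, with a limma adjusted p of 0.644, and 0.79 with the intensity trend. No flow itself differed little between the times (-0.08 for 1 h over 0 h), against 0.87 with rest-inserted and 0.91 with continuous flow. Kcnk2 is dim, with a mean of 5.15 and 1 named probe.

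Kcnk10, the TREK-2 channel, had flow ratios of 0.05 and 0.12 at 1 h and of 0.50 and 0.25 at 0 h with rest-inserted and continuous flow. Kcnh6 was at 4.56, 4.34 and 4.31 with rest-inserted flow, continuous flow and no flow at 1 h, and at 4.65, 5.00 and 4.95 at 0 h. The subunit Kcnab2 lay 0.43 below no flow with continuous flow at 1 h and within 0.09 of it in the other 3 comparisons.

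The 3 calcium channel genes detected on all arrays had mean flow ratios below 0, where 49.1% of all genes lay above 0. The mean of Cacna1g was -0.08, and that of Cacna2d1 turned sign when 1 array was left out. Cacna2d1, an auxiliary subunit, was 0.40 below no flow with rest-inserted and 0.30 below it with continuous flow at 1 h, and at 0 h its ratios were 0.06 and -0.01. Its dimmer probe, detected on 5 arrays, went the other way at 1 h, with 0.52 and 0.51. Cacnb4, another auxiliary subunit, had ratios of -0.30 and -0.46 at 1 h and of -0.02 and -0.02 at 0 h. Scn4b, a beta subunit of sodium channels, held the lowest single ratio. Its log2 intensity was 4.17 with rest-inserted and 4.92 with continuous flow against 4.94 with no flow at 1 h, and 4.24 and 4.44 against 4.23 at 0 h. The rest-inserted flow array at 1 h stood apart from the other 2 of its time point. Scn2a had ratios of -0.02 and 0.05 at 1 h and of 0.40 and 0.28 at 0 h, and Scn3a lay within 0.10 of no flow on every flow array.

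The P2 receptors respond to the ATP that loaded bone cells release. P2rx4 had log2 intensities of 7.83 with rest-inserted and 7.76 with continuous flow against 7.98 with no flow at 1 h, and 8.12 and 8.27 against 8.03 at 0 h. Both flow arrays lay below no flow at 1 h and above it at 0 h, and the flow effect at 1 h minus that at 0 h was -0.35 ± 0.16 (SE), with a limma adjusted p of 0.747. A second probe of P2rx4, at a mean of 7.23, had the same signs, with ratios of -0.32 and -0.27 at 1 h and of 0.25 and 0.23 at 0 h. P2rx5 had ratios of 0.07 and 0.04 at 1 h and of -0.15 and -0.25 at 0 h.

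In the gap junction group, Gja1 differed from no flow by -0.01 with rest-inserted and 0.13 with continuous flow at 1 h, and by 0.08 and 0.10 at 0 h. Its fitted differences were 0.04 ± 0.08 (SE) for rest-inserted and 0.12 ± 0.08 for continuous flow, with limma adjusted p of 0.986 and 0.893. Gjc1 (connexin 45) stood 0.31 above no flow with continuous flow at 0 h and within 0.09 of it in the other 3 comparisons. Panx3, a pannexin of differentiating osteoblasts, had log2 intensities of 6.25 with rest-inserted and 5.97 with continuous flow against 6.17 with no flow at 1 h, and of 6.22 and 6.10 against 6.50 at 0 h. Panx1, through which cells release ATP, had ratios of -0.15 and 0.19 at 1 h and of -0.03 and -0.02 at 0 h. Its dimmer probe, also detected on all 6 arrays at a mean of 4.67, had -0.35 and 0.05 at 1 h and -0.89 and -0.81 at 0 h, so the Panx1 probes disagree at 0 h.

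Among the chloride channel genes, the brightest probe of Clic4 stayed within 0.09 of no flow on every flow array. Its dimmest probe, at a mean of 6.81, had -0.21 and 0.05 at 1 h and 0.13 and -0.01 at 0 h. Clic1 had ratios of 0.03 with rest-inserted and 0.29 with continuous flow at 1 h and of -0.22 and -0.14 at 0 h. Clcn7, the chloride and proton exchanger of lysosomes, had ratios of -0.08 and -0.28 at 1 h and of 0.20 and 0.02 at 0 h.

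The genes of calcium release, clearance and store-operated entry had ratios of both signs. The inositol trisphosphate receptors had ratios at 1 h of -0.24 and -0.15 (Itpr2) and of -0.33 and -0.27 (Itpr3) with rest-inserted and continuous flow, and at 0 h the ratios of both genes lay within 0.12 of 0. Atp2a2 was above no flow on all 4 flow arrays, by 0.11 and 0.01 at 1 h and by 0.12 and 0.14 at 0 h. Of its other 2 probes, the dimmest, at a mean of 7.31, was below no flow on all 4 flow arrays, and the other had ratios of both signs. Atp2b1, a calcium pump of the plasma membrane, had log2 intensities of 6.45 with rest-inserted and 6.79 with continuous flow against 6.78 with no flow at 1 h, and of 6.79 and 6.61 against 6.32 at 0 h.

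Atp2c1, the calcium and manganese pump of the Golgi, had ratios of 0.28 and 0.41 at 1 h and of 0.14 and 0.07 at 0 h. Its dimmer probe had 0.35 and 0.60 at 1 h and -0.08 and -0.18 at 0 h. Orai3, a store-operated channel subunit, had log2 intensities of 5.29 with rest-inserted and 5.48 with continuous flow against 5.57 with no flow at 1 h, and of 5.45 and 4.96 against 5.58 at 0 h. The continuous flow array at 0 h was the lowest of the 6, 1.54-fold below no flow. Orai1 had ratios of 0.14 and 0.10 at 1 h and of -0.12 and -0.33 at 0 h. Stim2, a calcium sensor of the endoplasmic reticulum that opens Orai channels, had ratios of 0.11 and 0.06 at 1 h and of 0.10 and -0.09 at 0 h, while a dimmer probe of Stim2 was below no flow on all 4 flow arrays.

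Of the calmodulins, Calm3 differed from no flow by -0.01 and 0.02 at 1 h and by 0.03 and -0.19 at 0 h with rest-inserted and continuous flow. The brightest probe of Calm2 had log2 intensities of 10.84 with rest-inserted and 10.72 with continuous flow against 10.51 with no flow at 1 h, and of 10.68 and 10.64 against 10.91 at 0 h. The flow arrays lay above no flow at 1 h and below it at 0 h, with a difference between the flow effects of 0.52 ± 0.14 (SE) and a limma adjusted p of 0.644. A dim probe of the same transcript, at a mean of 5.45, had the same signs and larger ratios (1.07 and 1.02 at 1 h, -0.41 and -0.39 at 0 h). The third probe, which carries no accession, had the opposite signs (-0.34 and -0.33 at 1 h, 0.26 and 0.03 at 0 h), so the 3 probes of Calm2 disagree.

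Camk2g, a subunit of CaM kinase II, had log2 intensities of 7.54 with rest-inserted and 7.49 with continuous flow against 7.45 with no flow at 1 h, and of 7.55 and 7.72 against 7.34 at 0 h. All 3 of its probes were above no flow on all 4 flow arrays. The fitted differences were 0.15 ± 0.11 (SE) for rest-inserted and 0.21 ± 0.11 for continuous flow, with limma adjusted p of 0.949 and 0.878. Camk2b had ratios of 0.12 and 0.26 at 1 h and of -0.18 and -0.20 at 0 h, and Camk2n1, an inhibitor of the kinase, of 0.07 and 0.18 at 1 h and of -0.18 and 0.10 at 0 h.

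Of the 47 genes, 9 lay above no flow with both kinds of flow at 1 h and below it with both at 0 h, beside 11.9% of all genes, and 5 the other way round, beside 11.3%. The 9 were Kcnk2, Calm2, Kcnq1ot1, Camk2b, Clic1, Orai1, P2rx5, Camkk2 and Clic4, and the 5 were P2rx4, Scn4b, Clcn7, Kcnab2 and Camk2d. Among them Kcnk2 and Kcnq1ot1 had the largest flow effects at 1 h minus 0 h, 0.97 and 0.54, followed by Calm2. Atp2b1, not one of these 14, had -0.54. None of these genes passed the test of that difference. Of the 15 genes with more than 1 probe detected on all 6 arrays, all such probes had the same sign of this difference in 6. The probes of Camkk2, for example, disagree, so these directions too belong to the probe used.

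**Figure D3:**
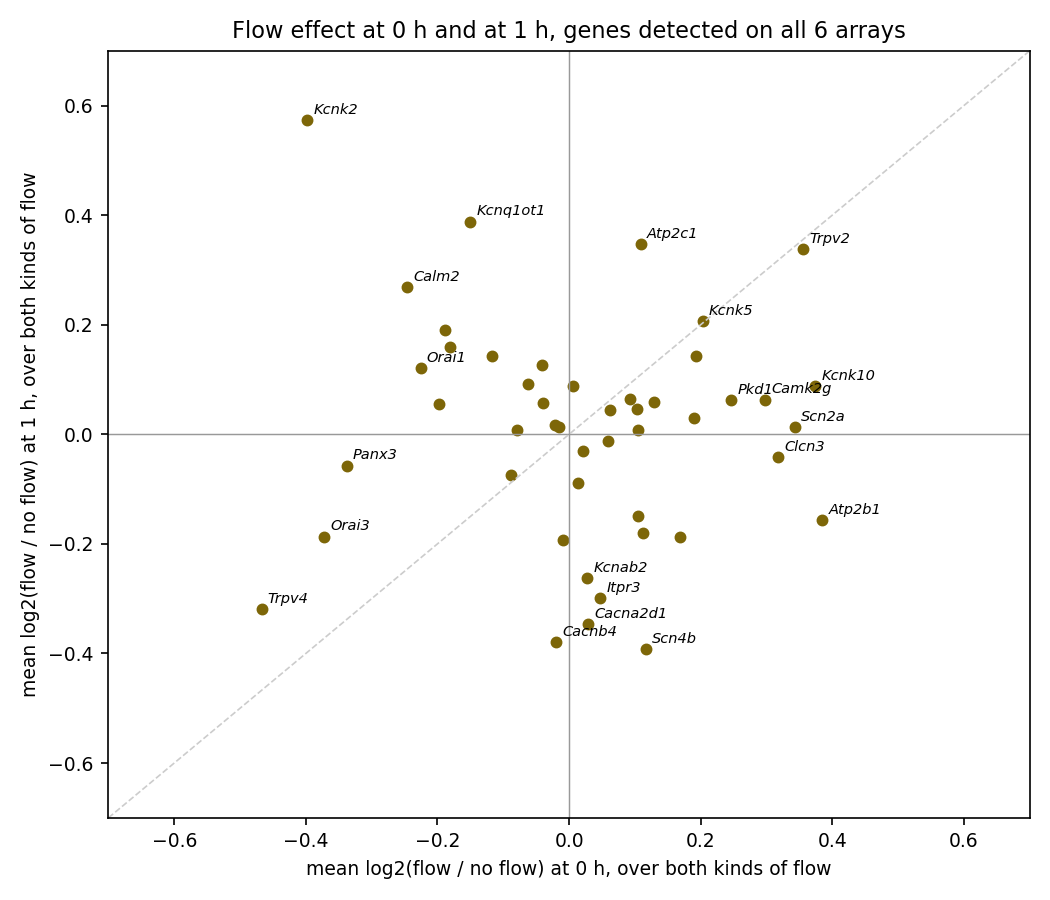
Mean log2 ratio of flow to no flow over both kinds of flow, at 0 h on the horizontal and at 1 h on the vertical axis, 1 point for each of the 47 genes. Trpv2 and Trpv4 lie near the dashed line of equal effects, and Kcnk2 lies at 0.57 at 1 h and -0.40 at 0 h.

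The comparison of rest-inserted with continuous flow bears on the effect of the rest intervals, and 0 of these genes passed its test. At 1 h, rest-inserted over continuous flow passed 1.5-fold upward in 0 of 47 (0.437% of all genes) and downward in 1, Scn4b (0.56%), and at 0 h in 0 in either direction (0.41% and 0.369%). The sign was the same at both times in 28 genes, with 16 higher and 12 lower with rest-inserted flow, beside 26.5% and 24.6% of all genes. The highest means over both times were those of Kcnk2 (0.25), Panx3 (0.20), Clcn7 (0.19) and Kcnab2 (0.19), and the lowest those of Scn4b (-0.48), Kcnq1ot1 (-0.21), Camk2n1 (-0.19) and Clic1 (-0.18). For Kcnk2 and Scn4b the fitted differences were 0.25 ± 0.29 (SE) and -0.48 ± 0.21, with a limma adjusted p of 0.999 for both.

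The comparison of 1 h with 0 h was made over all 3 flow conditions, no flow included. In all 3 flow conditions, 5 of the 47 genes were higher at 1 h and 9 lower, beside 18.5% and 18.4% of all genes. Kcnn4 was higher at 1 h by 0.46 with rest-inserted flow, 0.50 with continuous flow and 0.53 with no flow, and its arrays at 1 h (6.22, 6.12 and 6.02) did not overlap those at 0 h (5.76, 5.62 and 5.50). The fitted log2 difference was 0.49 ± 0.06 (SE), with a limma adjusted p of 0.326. With the intensity trend its error was 0.12 and its limma adjusted p 0.0258. When any 1 array was left out, the limma adjusted p with the trend lay between 0.167 and 0.434, and the difference between 0.48 and 0.51.

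Piezo1 was higher at 1 h by 0.26, 0.18 and 0.28 with rest-inserted flow, continuous flow and no flow, Kcnk5 by 0.15, 0.28 and 0.21, and Camk2b by 0.32, 0.48 and 0.02. Their limma adjusted p values were 0.432 for Piezo1 and 0.452 for Kcnk5 under the constant prior, and 0.153 and 0.348 under the intensity trend. The dimmer probe of Piezo1 did not share this sign in no flow cells, where it was 4.51 at 1 h and 5.01 at 0 h.

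Cacna1g, a T-type calcium channel that opens near resting voltage, was lower at 1 h by nearly the same size in all 3 conditions. Its log2 intensity was 5.14, 5.03 and 5.16 at 1 h with rest-inserted flow, continuous flow and no flow, against 5.62, 5.54 and 5.67 at 0 h. The fitted difference was -0.50 ± 0.06 (SE), with a limma adjusted p of 0.326, and 0.0742 with the intensity trend. P2rx5 had log2 ratios of 1 h to 0 h of -0.30, -0.23 and -0.52 in the same order of conditions, and Kcnh6 of -0.09, -0.66 and -0.64. P2rx4 had ratios of -0.29, -0.51 and -0.05. Its fitted difference was -0.28 ± 0.11 (SE), with a limma adjusted p of 0.505, and 0.0522 with the intensity trend. The second probe of P2rx4 did not share this sign in no flow cells, where it was 7.32 at 1 h and 7.18 at 0 h.

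**Figure D4:**
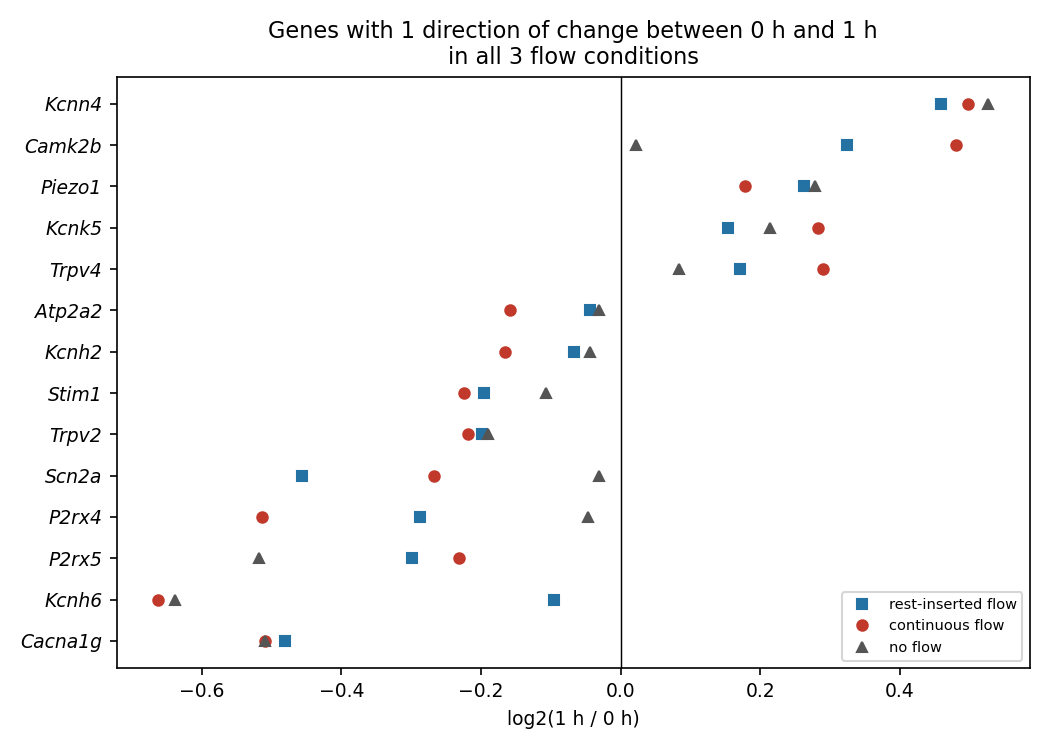
Log2 ratio of 1 h to 0 h for the 14 genes with 1 direction in all 3 flow conditions. Squares are rest-inserted flow, circles continuous flow and triangles no flow, 1 pair of arrays each. Kcnn4 and Cacna1g lie at similar values in all 3 conditions, and P2rx4 and Camk2b are close to 0 with no flow.

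The ratios were larger at low signal. Of the 47 genes, 19 (40.4%) had a mean log2 intensity under 6, beside 21.9% of all genes. In that band the median size of the log2 ratios of flow to no flow was 0.18 for these genes and 0.19 for all genes, and 3 of 76 ratios passed 1.5-fold (3.95%, beside 4.91%). From 6 to 8 the medians were 0.12 for these genes and 0.11 for all genes and from 8 upward 0.09 and 0.07, and 0 ratios of these genes passed 1.5-fold in either band.

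**Figure D5:**
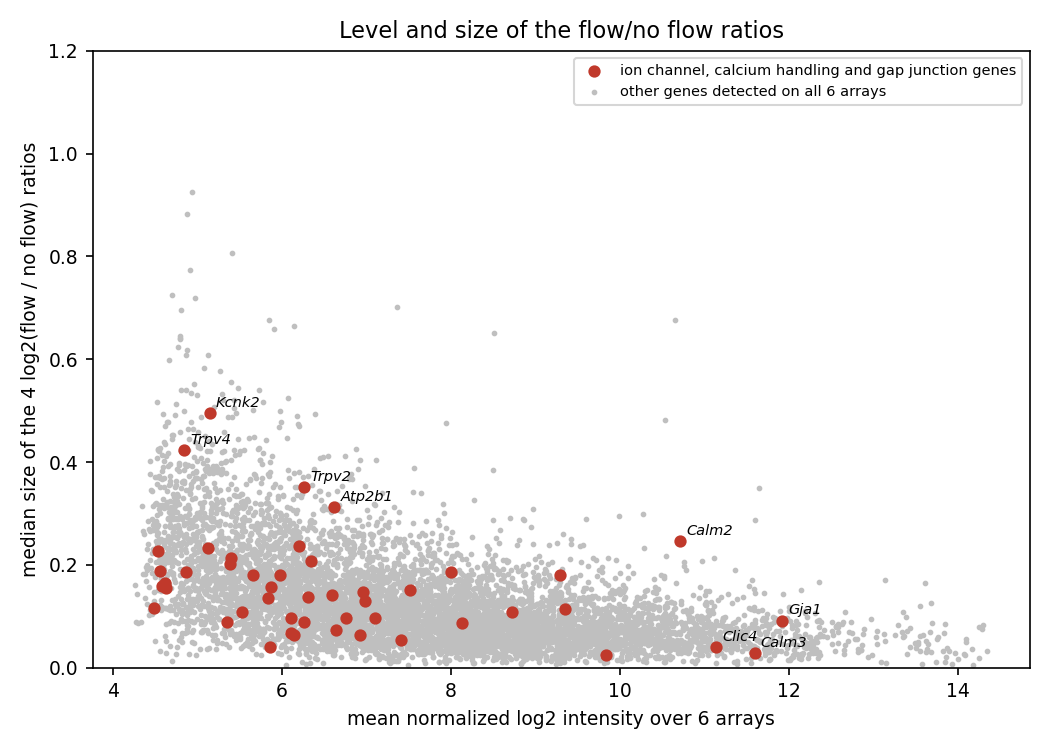
Median size of the 4 log2 ratios of flow to no flow against the mean normalized log2 intensity over 6 arrays, for the 47 genes and for the other genes detected on all 6 arrays. Each point is 1 gene, and the spread is widest below a log2 intensity of 6. Calm2, at 10.72, lies above most genes of its level.

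The log2 values hold probes detected on 1 array or more, so a gene near the limit of detection can be present through the arrays where it was high. The values of such genes are given as a description, with no fold or test. Trpm7, a channel fused to a kinase, had log2 intensities of 4.00 with rest-inserted and 4.01 with continuous flow against 3.32 with no flow at 1 h, and of 4.36 and 4.19 against 3.65 at 0 h. It was detected on the flow arrays of 0 h only, and the no flow value at 1 h is the floor. Cacng7, an auxiliary calcium channel subunit, had 4.41 and 4.35 against 3.67 at 1 h and 4.84 and 4.35 against 4.02 at 0 h. Both genes lay higher on all 4 flow arrays.

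Trpm3, a calcium-permeable channel, had log2 intensities of 3.72 with rest-inserted and 4.37 with continuous flow against 4.67 with no flow at 1 h, and of 3.80 and 4.03 against 4.41 at 0 h. Atp2b4, a calcium pump of the plasma membrane, had 3.94 and 4.27 against 5.06 at 1 h and 4.14 and 4.09 against 4.40 at 0 h. Both lay lower on all 4 flow arrays.

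The genes that act on calcium beside these channels were taken as 4 lists. Of 13 calcineurin and NFAT genes 10 were detected on all 6 arrays, of 15 phospholipase C and protein kinase C genes 8, of 14 exchangers and mitochondrial calcium genes 9, and of 21 calcium binding proteins 11. Under the constant prior limma called 0 of them in either direction in any comparison. Under the intensity trend it called 1, S100a10, a calcium-binding family member that lay 0.22 higher at 1 h than at 0 h (adjusted p 0.0280). The median of the mean flow ratios in each list lay between -0.004 and 0.009, beside 0.01 for the 47 genes and -0.0018 for all genes. Rcan1, which inhibits calcineurin and is induced by it, had ratios of -0.06 with rest-inserted and 0.24 with continuous flow at 1 h and of 0.14 and 0.48 at 0 h. By RT-PCR right after flow, the authors found this gene, under the name DSCR1, lower with continuous but not with rest-inserted flow. The array values with continuous flow at 0 h thus have the opposite direction.

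Of 10 osteoblast markers 5 had a named probe. Col1a1, a chain of type I collagen, averaged 12.15, Sp7, an osteoblast transcription factor, was detected on all 6 arrays, and Alpl, the alkaline phosphatase of mature osteoblasts, was detected on 2 arrays. Of the markers of other cells, 2 of 10 for muscle, 2 of 10 for neurons, 3 of 10 for macrophages and osteoclasts and 1 of 10 for endothelium had one. Their summed signal over the 6 arrays lay between 521 and 592 for macrophages and osteoclasts and between 154 and 172 for neurons. It lay between 38.7 and 86.9 for muscle and 22.3 and 33.2 for endothelium, beside 5832 and 7012 for the 5 osteoblast markers. Nearly all of the macrophage and osteoclast sum came from Ctsk, with a mean log2 intensity of 9.02. Csf1r and Lyz2 averaged 3.67 and 3.97. Most of the osteoblast sum likewise came from the collagen genes Col1a1 and Col1a2, the latter at a mean of 10.53. Sp7, Ibsp and Alpl averaged 8.0, 5.48 and 3.91, and Runx2, Bglap, Spp1, Dlx5 and Pth1r had no named probe. The sums are therefore set by a few genes and do not measure cell identity. Acta1, the actin of skeletal muscle, averaged 5.41 and lay above no flow by 0.70 and 0.91 at 1 h and by 0.64 and 1.02 at 0 h with rest-inserted and continuous flow. Myog, the other muscle marker, was detected on 2 arrays and had ratios of 0.45 and -0.05 at 1 h and of -0.64 and 0.11 at 0 h. Under the intensity trend limma called Acta1 for continuous flow against no flow (adjusted p 0.0290). For 1 h against 0 h it called Col1a1 (-0.23, adjusted p 0.00971) and Lyz2, a macrophage gene detected on 3 arrays (-1.26, adjusted p 0.0111). Lyz2 was at or near the floor at 1 h, with 3.36, 3.32 and 3.32 with rest-inserted flow, continuous flow and no flow, against 4.65, 4.50 and 4.66 at 0 h. The other genes of that list did not pass, with mean log2 differences between 1 h and 0 h of 0.02 for Ctsk, a protease of osteoclasts detected on all 6 arrays, and 0.16 for Csf1r. The part of any other cell type in the channel values was not tested.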

How the data were processed

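The intensity values deposited for each array had the background removed by the authors in GenomeStudio and were not normalized between arrays, and the deposited detection p-values compare each probe with negative controls. For the log2 values, the authors applied quantile normalization, a floor of 10, the log2 transform and a filter that kept the 15686 of 45281 probes detected on 1 array or more. Repeating these steps on the intensities returned the deposited log2 values to within 5.0e-08. In the rest-inserted flow 1 h array the detection column repeats the signal in 25281 rows, so detection was read there from the signal.

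Gene symbols came from the platform table, and 13183 probes with 1 symbol were tested in limma 3.58.1 (R 4.3.3), with a constant variance prior and Benjamini-Hochberg adjustment. The models were flow plus time point, and any flow by time point. The fit was tested on simulated data whose noise depended on intensity alone, a setting that favors the intensity trend. There the constant prior recovered the larger planted changes with flow and missed smaller ones that the intensity trend recovered. Even the smaller planted changes exceeded every flow ratio of the 47 genes, so 0 calls do not show that nothing changed. Genes named are the 2 brightest of each role and the extremes of each comparison, both among genes detected on all 6 arrays. Known mechanosensing genes and called genes are named too. The others, chosen after their values were seen, are Camk1, Camkk2, Camk2d, Camk2n2, Kcnh2, Panx1, Trpm7, Cacng7, Trpm3, Atp2b4, Rcan1 and S100a10. The genes listed near the limit of detection and the markers were also chosen after their values were seen. The members and lists were chosen with earlier results of these data known.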

Additional observations from a re-analysis of the deposited data

How the results depend on the processing

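Median scaling in place of quantile normalization, an offset of 16, all probes, no time term and leaving out each array in turn left the count of called genes at 0 in every comparison that could be fitted. Without a no flow array the flow effect at its time point could not be fitted. The intensity trend in the variance prior gave 1 called gene for 1 h against 0 h, Kcnn4, and 0 once any 1 array was also left out, a setting chosen after seeing the data.

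The counts past 1.5-fold, in either direction, are of 0 to 2 among the 47 genes. With the offset of 16 they were 0 for continuous flow 0 h, 0 for rest-inserted flow 1 h and 0 for rest-inserted against continuous flow 1 h. With all 62 genes, those near the limit of detection included, they were 8 for rest-inserted flow 1 h (beside 5.03% of all 8566 genes), 5 for continuous flow 1 h (5.17%), 7 for rest-inserted flow 0 h (5.09%) and 5 for continuous flow 0 h (5.44%). For rest-inserted against continuous flow they were 6 at 1 h (4.72%) and 2 at 0 h (4.17%). The medians moved by less than 0.113, the median residual SD of these genes. This bound is larger than the medians themselves, so it is no check on their signs. The median of 1 h over 0 h turned from -0.0198 to 0.0065 with median scaling and to 0.0141 with the mean of the probes. Without 1 array, the sign of the mean flow ratio turned in 20 of the 39 named genes, that of rest-inserted minus continuous flow in 16, and that of 1 h minus 0 h in 13. In Trpv2, Trpv4, Kcnn4, Kcnk5, Cacna1g and Atp2a2 all 4 flow ratios had 1 sign, as did all 3 ratios of 1 h to 0 h. Leaving out 1 array could therefore not turn their means, and that their signs stayed is no check on them. Other named genes kept both signs as well, among them Gja1, Piezo1, Atp2c1 and Kcnk10. For the same reason, the flow signs of Atp2c1 and Kcnk10 and the time sign of Piezo1 could not turn. No paired analysis was possible because each condition has 1 array and the labels number no replicates.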
